A study of Mus musculus with 40 samples.

Results

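The Shank, Dlgap and Homer genes encode the scaffold proteins in the deep layer of the postsynaptic density. All 10 genes of these families were taken by symbol from the 41388 Ensembl genes counted in each library: Shank1, Shank2 and Shank3, Dlgap1, Dlgap2, Dlgap3 and Dlgap4, and Homer1, Homer2 and Homer3. The families were taken whole, with earlier results of these data known. In a glutamatergic synapse the Dlgap proteins (also called SAPAP or GKAP) bind PSD-95 and its relatives on one side and the Shank proteins on the other. Homer proteins cross-link Shank to metabotropic glutamate receptors and to the inositol trisphosphate receptor. Some of the messenger RNAs, those of Shank1, Shank3 and Dlgap3 among them, are known from hippocampal dendrites, where scaffold proteins can be made near the synapse.

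The counts came from 40 RNA sequencing libraries of mice at postnatal day 21, in 8 groups of 5. Both lines carried a Cre-dependent transgene that puts an EGFP tag on the ribosomal protein L10a, so that ribosomes and the mRNA on them can be pulled down with anti-GFP antibodies (translating ribosome affinity purification, TRAP). In RBP4-TRAP mice Cre came from Tg(RBP4-cre)KL100Gsat/Mmcd, which is active in layer 5 pyramidal neurons. In VGAT-TRAP mice it came from the Slc32a1 (VGAT) locus (Slc32a1tm2(cre)Lowl/J), which is active in GABAergic neurons of any kind, and the study gives some dorsal striatum as likely included. A replicate was a pool of forebrains of both sexes, although the labels call the tissue cortex. It gave whole cell homogenate (WCH, total RNA), TRAP from that homogenate, the synaptoneurosome fraction (SNF, total RNA of resealed synaptic particles) and SynapTRAP (ST, TRAP performed on the SNF).

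Counts per library summed to between 14259535 and 22037703. They are given below as counts per 1000000 (cpm) of the counts that remained without mitochondrial, rRNA and tRNA genes, which were 8950847 to 21976631 per library. At that depth 1 count was worth between 0.0455 and 0.112 cpm. Mitochondrial genes took a median of 0.234% of the counts of TRAP libraries and 17.2% of those of SNF libraries. All 10 genes passed the limit on low counts in every comparison. Homer3 was close to it, at 0.179 to 5.99 cpm and with as few as 3 counts in a library, and 25.4% of its exonic bases are also exonic in Ddx49 on the opposite strand. As the sources used here do not say whether counting used the strand, Homer3 values are uncertain. For Shank3 the share on the opposite strand, with Gm15609, was 3.05%, for Dlgap4 it was 0.284%, and for the other members it was 0. Differences were tested in edgeR with its quasi-likelihood test, and a call is an adjusted p (Benjamini-Hochberg, over all genes tested) of at most 0.05. Where a result is called higher or lower in what follows, it passed that test.

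Some libraries stood apart. In 3 of the 10 TRAP libraries 5 oligodendrocyte markers (Mbp, Mog and Cnp among them) summed to more than 1000 cpm. This sum was 5448 cpm in replicate 5 of RBP4 TRAP against 383 to 921 cpm in the other 4, and 2383 and 1746 cpm in replicates 3 and 5 of VGAT TRAP against 426 to 591 cpm in the other 3. In the same libraries the 5 astrocyte markers summed to 690.4 cpm (83.1 to 186 in the others) in RBP4 TRAP, and to between 219.9 and 396 cpm (50.5 to 83.7) in VGAT TRAP. Glutamatergic markers in VGAT TRAP were at 120.1 and 302 cpm in those replicates against 72.7 to 88.6 cpm, and GABAergic markers in RBP4 TRAP were at 437 cpm in replicate 5 against 92.5 to 139 cpm. In replicate 4 of RBP4 ST, Slc32a1, a GABAergic gene, was at 49.9 cpm, while the other 4 libraries of its group had 10.9 to 19.7 cpm and those of VGAT ST had 23.3 to 51.3 cpm. That holds for this gene alone. The 5 GABAergic markers together summed to 205 to 330 cpm in RBP4 ST (median 306 cpm), so that no library had an outlying high sum. The TRAP libraries otherwise held the markers of their labelled cells, with GABAergic markers at 3027 to 5203 cpm in VGAT TRAP and at most 437 cpm in RBP4 TRAP, and glutamatergic markers at 824 to 1306 cpm in RBP4 TRAP and at most 302 cpm in VGAT TRAP. Markers of striatal projection neurons, also GABAergic, summed to 1029 to 1938 cpm in VGAT TRAP. In VGAT WCH they were at 200 to 346 cpm, and in RBP4 TRAP at 58.0 to 136 cpm. VGAT TRAP thus does not stand for cortical interneurons alone. Replicate 3 stood apart in both lines by its mitochondrial share, which was 40.2% (RBP4) and 41.9% (VGAT) in SNF against 11.2% to 19.4% in the other SNF libraries, and 15.8% and 19.0% in ST against 2.71% to 7.08%. These genes are not in the cpm, but VGAT ST replicate 3 held the highest value of its group for Shank1 (1678 cpm), Shank3 (178), Dlgap1 (794), Dlgap3 (143), Dlgap4 (152) and Homer2 (343), and RBP4 ST replicate 3 for Dlgap1 (1046), Homer1 (139.8) and Homer2 (294). Without replicate 3 the calls of ST against SNF and ST against TRAP were kept but for 1, Dlgap2 in ST against SNF of the RBP4 line (adjusted p = 0.064). Fits without the 3 TRAP libraries, a choice made after the values had been seen, are given below where they change a call or move a called value by over 1.5 times.

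ST libraries held more of the glial markers than TRAP libraries. The oligodendrocyte markers summed to between 31725 and 54545 cpm in ST of the 2 lines, to between 11895 and 18475 cpm in SNF, and to between 6289 and 9724 cpm in WCH. Astrocyte markers were instead highest in SNF. Their medians in RBP4 were 1012 cpm in WCH, 3573 in SNF and 2192 in ST, and in VGAT 1273, 3523 and 2300 cpm. Glutamatergic markers were as high in VGAT ST (575 to 870.1 cpm) as in VGAT WCH (704 to 849 cpm), although they were low in VGAT TRAP, and GABAergic markers in VGAT ST (258 to 706 cpm) were far under VGAT TRAP (3027 to 5203 cpm). The markers of the tagged cells overlapped between ST and SNF. In VGAT the GABAergic sum was at 249 to 657 cpm in SNF (median 440.5, and 408 in ST), and in the RBP4 line the glutamatergic sum was at 798 to 1173 cpm in SNF and 696 to 1278 cpm in ST (medians 897 and 1019). All 5 genes of each of these lists were detected in each group. The part of RNA from other cells in what follows was not tested. In fractions of mixed tissue, fewer cells of a type and less RNA of a gene per cell cannot be told apart.

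Per length Shank1 was the highest of the scaffold genes in RBP4 WCH and in SNF and ST of both lines, but not clearly so in VGAT WCH and in TRAP. The study states that priming at the 3′ end left its reads strongly biased towards that end. Counts may then not scale with exon length, and the order of genes depends on the division. Without it Dlgap1 had a higher mean than Shank1 in WCH, at 398 and 368 cpm in RBP4 and 424 and 313 cpm in VGAT. Dividing cpm by kb of exon, Shank1 (ENSMUSG00000038738, chromosome 7, 44310253 to 44358351, 8.293 kb of exon) reached 44.4 ± 6.22 cpm per kb in RBP4 WCH (SD, n = 5) and 117 ± 50.7 in RBP4 ST, the highest level of the 10 genes in both. In RBP4 TRAP the mean of Homer1 (22.6 ± 6.10 cpm per kb) was above that of Shank1 (20.9 ± 12.2), with Homer1 higher in 4 of 5 libraries, and in VGAT TRAP Shank1 (21.3 ± 13.6) was above Homer1 (18.8 ± 1.60) in 2 of 5 libraries alone. Every RBP4 ST library had more Shank1 per kb than any of the other 9 genes there. In RBP4 WCH it was followed by Homer1 at 24.5 ± 7.54 and Dlgap1 at 23.4 ± 1.28 cpm per kb, whose ranges overlapped. In VGAT WCH the ranges of Shank1 (37.7 ± 7.84) and Homer1 (30.1 ± 2.50) overlapped, with Shank1 higher in 4 of 5 libraries. Homer3 was the lowest in all 8 groups, between 0.246 and 0.832 cpm per kb, and Shank3 was the second lowest in both WCH groups, with 1.75 ± 0.507 in RBP4 and 1.37 ± 0.244 in VGAT.

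The make-up of the families changed between fractions, as read from shares of a family's cpm per kb, which do not depend on how libraries are scaled. Homer1 made up 74.6% ± 4.27 of the Homer family in RBP4 WCH and 83.3% ± 7.98 in RBP4 TRAP (SD, n = 5), and 35.2% ± 5.91 in RBP4 ST. Homer2 made up 22.8% ± 3.02, 14.3% ± 4.25 and 62.1% ± 6.22. In the VGAT line Homer1 went from 79.1% ± 2.27 in WCH to 36.1% ± 4.16 in ST, and Homer2 from 19.7% ± 2.22 to 61.9% ± 3.91. By this measure Homer1 was thus the main family member in each WCH and TRAP library and Homer2 in each ST library. The size of a share depends on the division by exon length, which the 3′ bias makes uncertain. Means of cpm without it had the same order, with Homer1 at 257 and Homer2 at 80.5 cpm in RBP4 WCH, and 119 and 228 cpm in RBP4 ST. The SNF lay between these fractions, with Homer1 at 53.1% ± 7.44 in the RBP4 and 59.6% ± 7.30 in the VGAT line. In the Dlgap family the share of Dlgap3 was 6.51% ± 1.60 in RBP4 WCH, 12.9% ± 2.90 in SNF and 20.2% ± 6.18 in ST, and in the VGAT line 5.25% ± 0.358, 11.2% ± 1.72 and 25.0% ± 5.90. Shank3 took 2.89% ± 0.722 of the Shank family in RBP4 WCH and 7.62% ± 2.30 in ST, with 2.14% to 3.77% and 4.56% to 10.1% in single libraries, so that these ranges did not overlap. In RBP4 TRAP its share was 3.77% ± 0.972. In VGAT libraries Shank3 took 2.71% ± 0.787 in WCH, 3.12% ± 0.559 in SNF, 7.07% ± 2.80 in TRAP and 6.53% ± 1.46 in ST, so that there the ST share was not above that of TRAP.

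**Figure D1:**
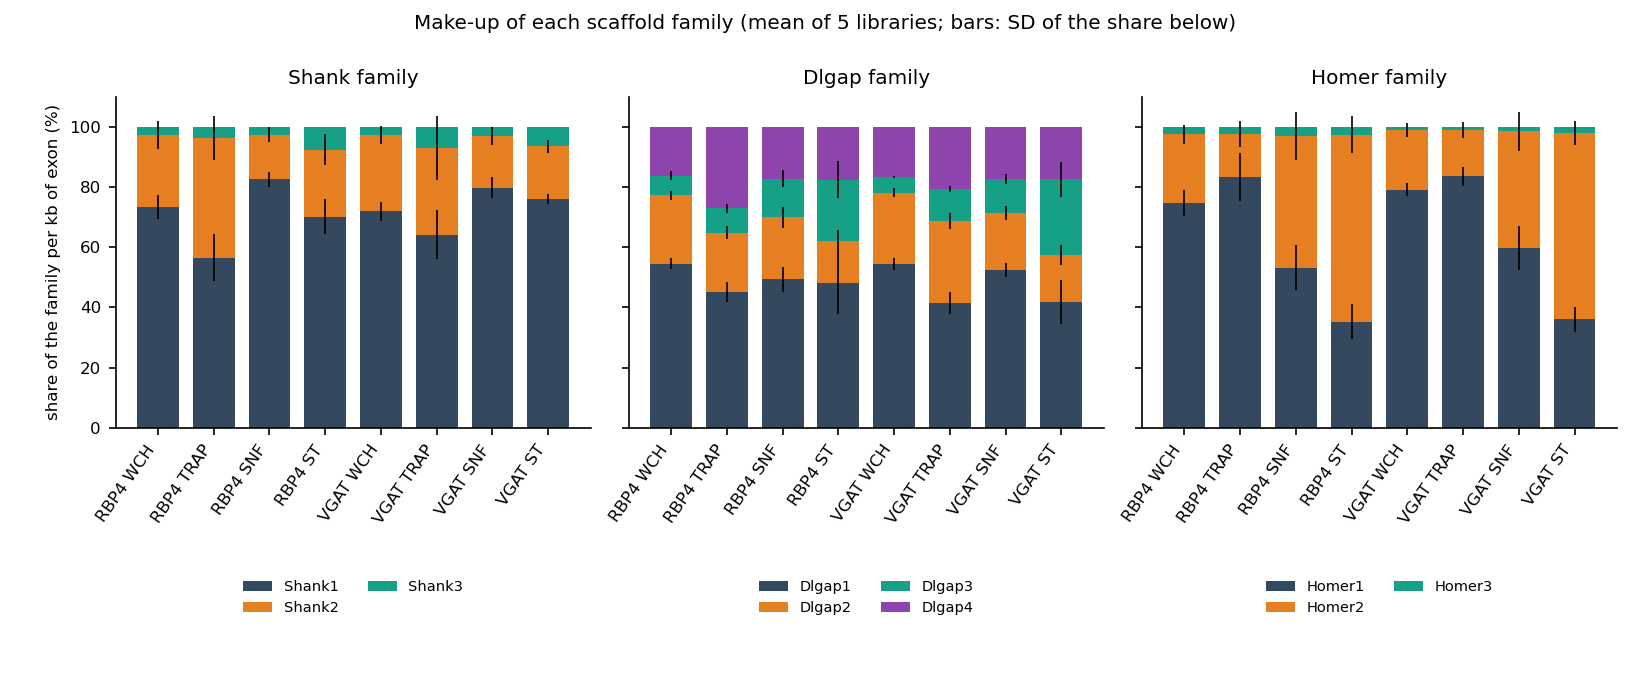
Share of each member in its family's summed cpm per kb of exon (y axis, in %), by line and fraction (x axis); stacked bars are means of 5 libraries and the black lines the SD of the segment they end. Homer1 fills most of the Homer bar in WCH and TRAP (74.6% and 83.3% in the RBP4 line) and Homer2 most of it in ST (62.1%).

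Of the 10 members, 7 had both ST groups on top: Shank1, Shank2, Shank3, Dlgap1, Dlgap3, Dlgap4 and Homer2. For Shank1, Dlgap1 and Dlgap4 the lower ST group overlapped the third group. For Shank2, Shank3, Dlgap3 and Homer2 every ST library was above every WCH, SNF and TRAP library, except for Shank2, where replicate 5 of the RBP4 TRAP group and replicate 5 of VGAT TRAP, at 292 and 291 cpm, exceeded the lowest ST library at 284 cpm. The 2 ST groups overlapped each other for all 7. Homer1, which carries a short activity-induced form that lacks the part by which Homer proteins join, was ordered the other way: VGAT WCH (317 ± 26.2 cpm) and RBP4 WCH (257 ± 79.2 cpm) were its highest groups, and the SNF and ST groups its lowest 4, at means of 110.4 to 142 cpm. All neighbours in the Homer1 order overlapped.

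**Figure D2:**
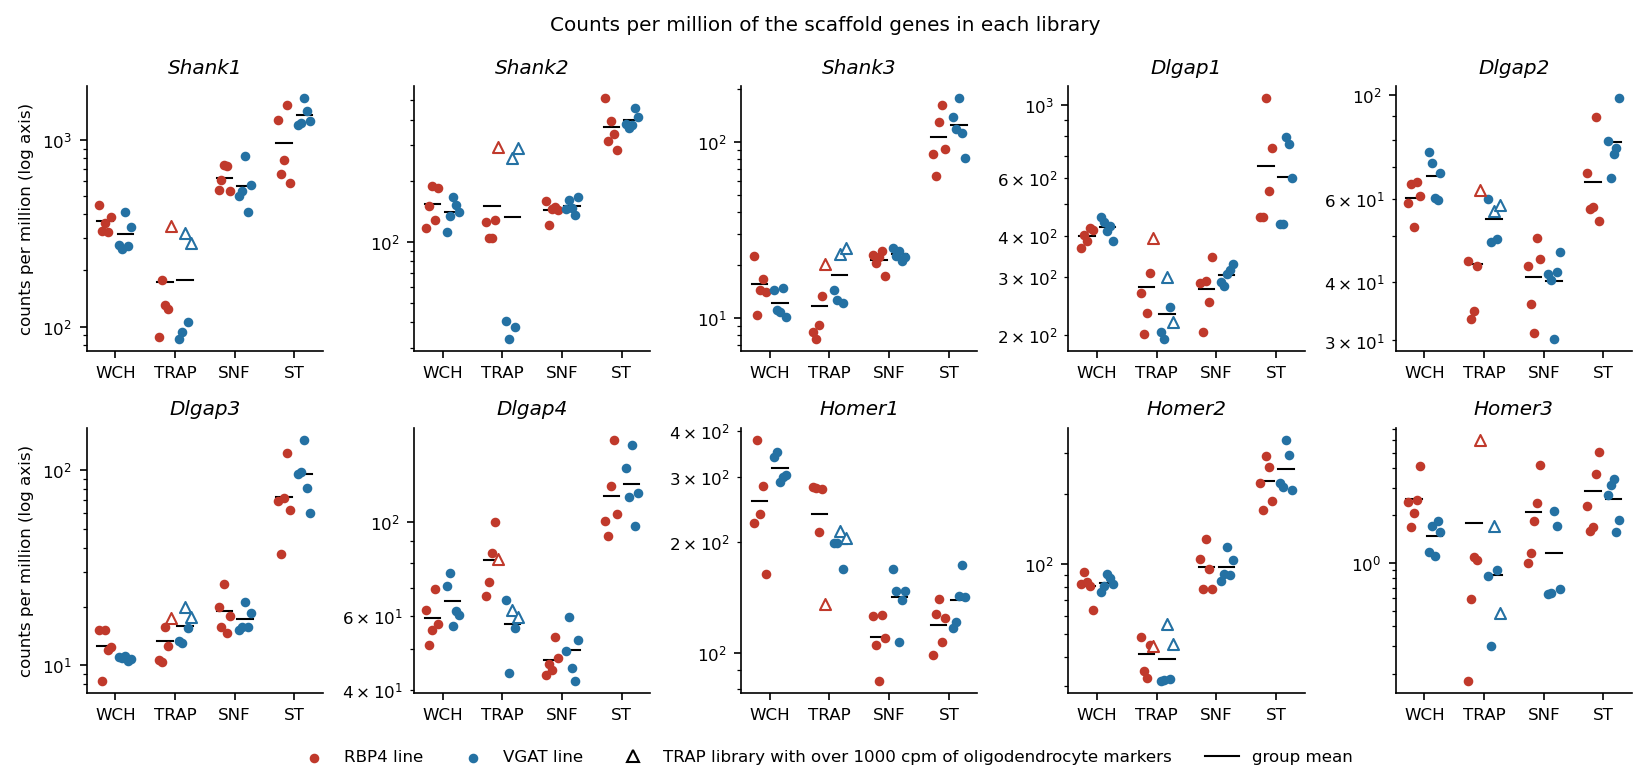
Values in cpm (y axis, logarithmic) of each scaffold gene in each of the 40 libraries by fraction (x axis); red is the RBP4 line, blue the VGAT line, black lines are means of 5 libraries and open triangles the 3 TRAP libraries with over 1000 cpm of oligodendrocyte markers. Shank3 in ST lies between 64.3 and 178 cpm, above each other library, and Shank2 in VGAT TRAP falls into 3 libraries at 33.0 to 40.4 cpm and the 2 triangles at 259 and 291 cpm.

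ST against SNF sets the RNA pulled down with tagged ribosomes from the synaptic particles beside the total RNA of those particles. The summed oligodendrocyte markers had a median of 14944 cpm in RBP4 SNF and 33690 in RBP4 ST, and of 15549 and 43535 cpm in VGAT, with no overlap of the groups, while the sums of the tagged cells' own markers overlapped. Other glial markers had lower medians in ST. Those of astrocytes went from 3573 to 2192 cpm in RBP4 and from 3523 to 2300 cpm in VGAT. Microglia markers went from 276 to 137 cpm and from 407 to 234 cpm. Most of the scaffold genes were higher in ST: 7 of 10 in the RBP4 line, where 5.64% of all genes tested were called higher, and 9 of 10 in the VGAT line, where 16.3% were. None was lower in edgeR, DESeq2 or any other setting, and none at an unadjusted p under 0.05, against 5.46% and 11.2% of all genes called lower. The median log2 fold change over the 10 genes was 1.24 in the RBP4 and 1.28 in the VGAT line, beside -0.05 and 0.08 over all genes tested. The groups did not overlap for 7 and 8 of the 10 genes, against 3.55% and 8.99% of all genes, and in no case with ST below SNF (3.09% and 6.38% of all genes). With TMM factors (edgeR's trimmed means of M values) the numbers called higher were 7 and 8. Over all genes of the VGAT line the split between higher and lower was 2771 and 1905, and with TMM it was 1987 and 2480.

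The largest changes were those of Shank3 and Dlgap3. Shank3 (ENSMUSG00000022623, chromosome 15, 89499623 to 89560261), whose loss in people causes Phelan-McDermid syndrome, was at 22.8, 20.5, 22.2, 23.9 and 17.3 cpm in replicates 1 to 5 of RBP4 SNF and at 85.8, 64.3, 131, 162 and 91.3 cpm in RBP4 ST. In the VGAT line its SNF libraries were at 25.0, 22.6, 24.1, 21.0 and 22.0 cpm and its ST libraries at 139, 119, 178, 113 and 80.8 cpm. Each ST library was thus far above every SNF library, and the spread was wider in ST. The log2 fold change was 2.32 ± 0.28 (SE, adjusted p = 2.06e-05) and 2.46 ± 0.21 (adjusted p = 2.33e-08).

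Dlgap3 (ENSMUSG00000042388, chromosome 4, 127169204 to 127237022), also known as SAPAP3, is the Dlgap whose loss in mice gives compulsive grooming. It was at 20.0, 15.7, 26.2, 14.6 and 17.9 cpm in RBP4 SNF and 69.7, 37.1, 71.7, 123 and 62.4 cpm in RBP4 ST. In VGAT it was at 15.2, 15.8, 21.2, 15.7 and 18.5 cpm and at 95.9, 98.5, 143, 81.1 and 60.0 cpm. Again the groups did not overlap, with the highest RBP4 ST value in replicate 4, which stood apart in Slc32a1. The log2 fold change was 1.95 ± 0.26 (adjusted p = 5.23e-05) in RBP4 and 2.47 ± 0.18 (adjusted p = 2.99e-09) in VGAT.

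The other Dlgap genes were higher by less. Dlgap1 had a log2 fold change of 1.24 ± 0.23 in RBP4 (275 ± 52.0 cpm in SNF and 649 ± 251 in ST, SD, n = 5) and of 0.99 ± 0.16 in VGAT. Within RBP4 ST, Dlgap1 ranged from 455 to 1046 cpm. Dlgap4 had 1.29 ± 0.16 and 1.30 ± 0.14, and Dlgap2 0.68 ± 0.19 and 0.98 ± 0.13. The call for Dlgap2 in the RBP4 line, with an adjusted p of 0.0215, was lost without replicate 1, 2, 3 or 4 (adjusted p between 0.0518 and 0.109), and with replicate 4 left out of ST alone the adjusted p was 0.0766. The other 6 calls of the RBP4 line were kept without that library.

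Of the other Shank genes, Shank2 was higher in ST of both lines. It was at 158, 120.4, 145, 148 and 144 cpm in RBP4 SNF and at 512, 316, 393, 342 and 284 cpm in ST, a log2 fold change of 1.37 ± 0.25 (adjusted p = 0.000813). In VGAT it was at 145, 159.9, 146, 136 and 167 cpm in SNF and at 382, 364, 376, 457 and 411 cpm in ST, a log2 fold change of 1.4 ± 0.44 (adjusted p = 0.0202). SNF and ST did not overlap in either line, but without VGAT replicate 4 the adjusted p in that line was 0.058. Shank1 was called in VGAT alone, with 1.26 ± 0.30 (adjusted p = 0.00294). In the RBP4 line it was at 539, 608, 734, 722 and 530.4 cpm in SNF and at 1275, 661, 779, 1547 and 585 cpm in ST. ST was higher in 5 of 5 pools, but the groups overlapped and the log2 fold change of 0.63 ± 0.30 did not pass (adjusted p = 0.183, and 0.0593 to 0.485 over 15 alternative settings). Whether the lines differ in this was tested directly and not called, with a difference of -0.63 ± 0.44 (adjusted p = 0.999), which does not show that they are alike.

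The Homer genes were unlike each other. Homer2 (ENSMUSG00000025813, chromosome 7, 81600481 to 81706925) went from 105, 77.9, 128, 95.1 and 78.1 cpm in RBP4 SNF to 223, 172, 294, 263 and 187 cpm in ST, and from 84.97, 90.7, 118, 89.5 and 104 cpm to 224, 216, 343, 295 and 208 cpm in VGAT. The log2 fold change was 1.23 ± 0.19 (adjusted p = 0.00013) and 1.4 ± 0.17 (adjusted p = 1.56e-06), with no overlap of the groups. Homer1 (ENSMUSG00000007617, chromosome 13, 93303757 to 93404129) was at 126, 105, 83.9, 127 and 109.6 cpm in RBP4 SNF and 98.7, 127, 139.8, 107 and 124 cpm in ST, and at 169, 147, 107, 139 and 148 cpm and 117, 121, 142, 173 and 142 cpm in VGAT. SNF and ST overlapped throughout in Homer1, with log2 fold changes of 0.11 ± 0.22 (adjusted p = 0.792) and -0.03 ± 0.13 (adjusted p = 0.892). Homer3 was called higher in VGAT alone (1.16 ± 0.41, adjusted p = 0.0374), from 0.634 to 2.12 cpm in SNF and 1.56 to 3.39 cpm in ST. That call was lost with TMM factors (adjusted p = 0.062), with no filter on low counts (0.051), with all 40 libraries in the fit (0.144) and without replicate 1, 2 or 5 (adjusted p between 0.0876 and 0.175).

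**Figure D3:**
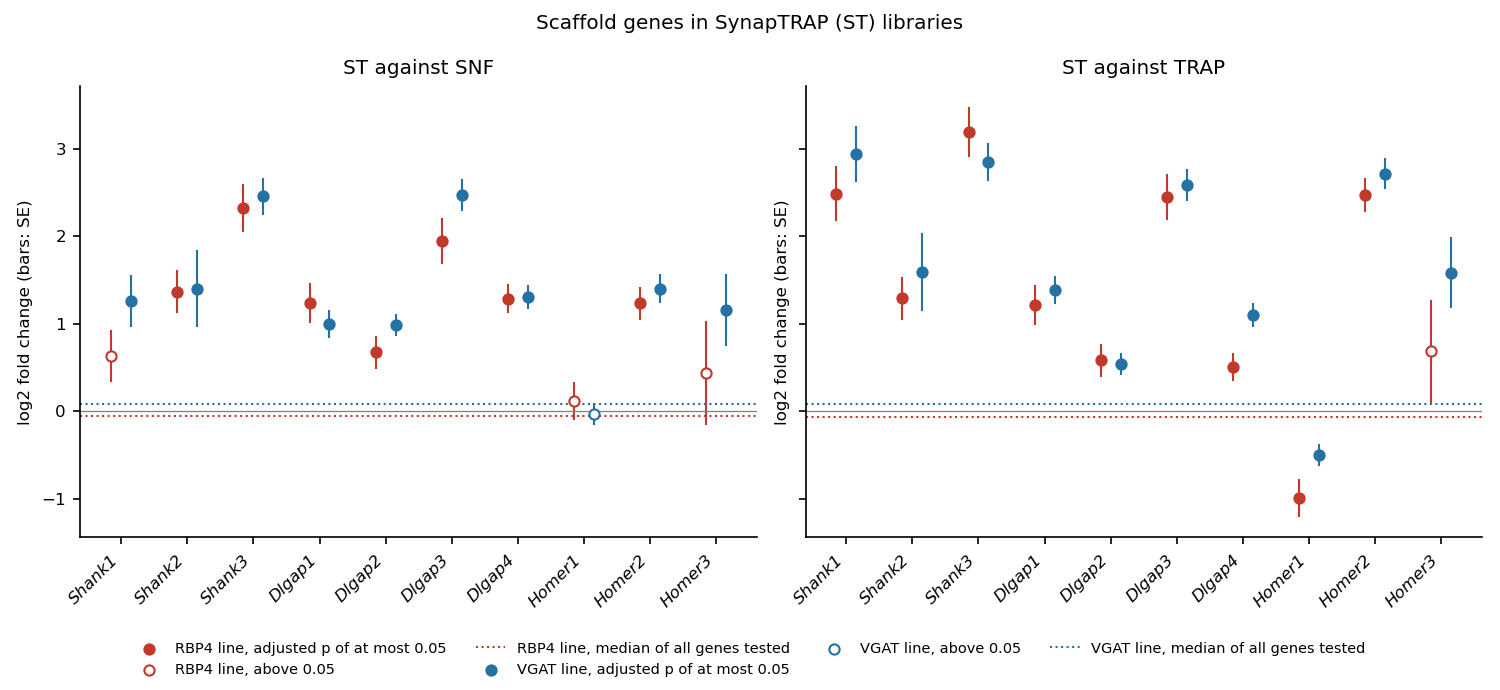
Log2 fold change (y axis; bars, SE) of each scaffold gene (x axis) in ST against SNF and in ST against TRAP, in the RBP4 (red) and VGAT (blue) lines, 5 libraries a group; filled points have an adjusted p of at most 0.05 and dotted lines are the medians of all genes tested. Shank3 and Dlgap3 are the highest points against SNF (2.32 and 1.95 in RBP4, 2.46 and 2.47 in VGAT), and Homer1 is near 0 against SNF and below 0 against TRAP (-0.99 and -0.50).

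SNF against WCH asks which mRNAs are enriched in the synaptic particles. Here the scaffold genes split. In the RBP4 line Shank1 was higher (1 of 10, where 13.4% of all genes were called) and Dlgap2 and Homer1 lower (2 of 10, where 36.1% were). In the VGAT line Shank1, Shank3 and Dlgap3 were higher (3 of 10, 19.3% of all genes) and Dlgap1, Dlgap2, Dlgap4 and Homer1 lower (4 of 10, 45.2% of all genes). This comparison depends on scaling more than the others, since the median of all genes was -0.50 in RBP4 and -0.52 in VGAT with library sizes alone and -0.17 in both with TMM factors. Over all genes the split between higher and lower calls was 2286 and 6161 in RBP4 and 3283 and 7680 in VGAT, and with TMM 3284 and 3048, and 4187 and 4747. Of the 10 scaffold genes, 7 and 8 lay above those medians with library sizes alone. In RBP4 the groups did not overlap for 1 gene that was higher and 3 that were lower (10.5% and 27.1% of all genes), and in VGAT for 2 and 3 (15.2% and 36.9%).

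Shank1 was the most abundant scaffold gene of the SNF. It was at 446, 324, 359.9, 322 and 388 cpm in RBP4 WCH and so below each SNF value, with a log2 fold change of 0.77 ± 0.30 (adjusted p = 0.0365). Without genes left out of the library sizes, or without replicate 2, 3 or 4, this was not called (adjusted p between 0.102 and 0.145). In VGAT WCH it was at 275, 261, 414, 272 and 343 cpm beside 503, 530.2, 823, 411 and 577 cpm in SNF, with 0.86 ± 0.30 (adjusted p = 0.0151, and 0.0896 with no genes left out). Shank3 was at 14.4, 11.1, 10.7, 14.7 and 10.1 cpm in VGAT WCH, all below SNF, with 0.91 ± 0.21 (adjusted p = 0.000665). In RBP4 its 0.45 ± 0.27 did not pass (adjusted p = 0.166, 0.0228 with TMM and 0.00439 with DESeq2). Dlgap3 had 0.66 ± 0.18 in VGAT (adjusted p = 0.0026) and 0.58 ± 0.26 in RBP4 (adjusted p = 0.0628). The blocked fit, with the pool as a term, called the latter (0.60 ± 0.22, adjusted p = 0.0245), as did TMM, DESeq2, all 40 libraries and the fit without RBP4 ST replicate 4 (adjusted p between 0.000754 and 0.035). Homer2, at 0.27 ± 0.18 in RBP4 and 0.22 ± 0.16 in VGAT, was called higher in both lines with TMM (0.63 and 0.58, adjusted p 0.0192 and 0.0109) and with DESeq2 (0.72 and 0.68, adjusted p 0.0031 and 0.00105). No line difference of SNF against WCH was called in edgeR or DESeq2 for any of 17728 genes, with 94 and 96 genes at an unadjusted p under 0.05. Chance alone would give a share of about 0.05 of all genes, far more than were seen. These tests were thus overly cautious, and their lack of calls does not show that the lines are alike.

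Homer1 had the largest decrease of the 10 genes in both lines. Its WCH libraries were at 224, 377, 239, 283 and 164 cpm in RBP4 and at 338, 350.4, 290.4, 300.3 and 303 cpm in VGAT, all above the SNF values given before. The log2 fold change was -1.22 ± 0.22 (adjusted p = 0.000237) and -1.16 ± 0.13 (adjusted p = 2.89e-07), and it stayed a decrease under each scaling tried. Dlgap2 was at -0.56 ± 0.19 and -0.74 ± 0.13, with its RBP4 call lost under TMM (-0.23, adjusted p = 0.297), DESeq2 (-0.13, adjusted p = 0.563) and without replicate 1 or 2 (adjusted p 0.0551 and 0.0742). Dlgap1 was at -0.48 ± 0.16 in VGAT (adjusted p = 0.0112, 0.528 under TMM and 0.887 with DESeq2), and Dlgap4 at -0.38 ± 0.14 (adjusted p = 0.0172), a direction that turned to 0.074 with DESeq2 (adjusted p = 0.718) and a call that was lost under TMM (-0.03, adjusted p = 0.895) and without replicate 1 or 4 (adjusted p 0.0685 and 0.0557). In RBP4 the blocked fit also called Dlgap1 (-0.56 ± 0.19, adjusted p = 0.0193) and Dlgap4 (-0.32 ± 0.13, adjusted p = 0.0378) lower, which made 2 members higher and 4 lower in place of 1 and 2. Dlgap1 was near the threshold there (-0.53 ± 0.22, adjusted p = 0.0514). It was also called without replicate 3 or 5, without the TRAP library, with all 40 libraries, no genes left out, the stricter filter and the likelihood ratio test (adjusted p between 0.00582 and 0.0472), and Dlgap4 with no genes left out (-0.55, adjusted p = 0.0145).

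**Figure D4:**
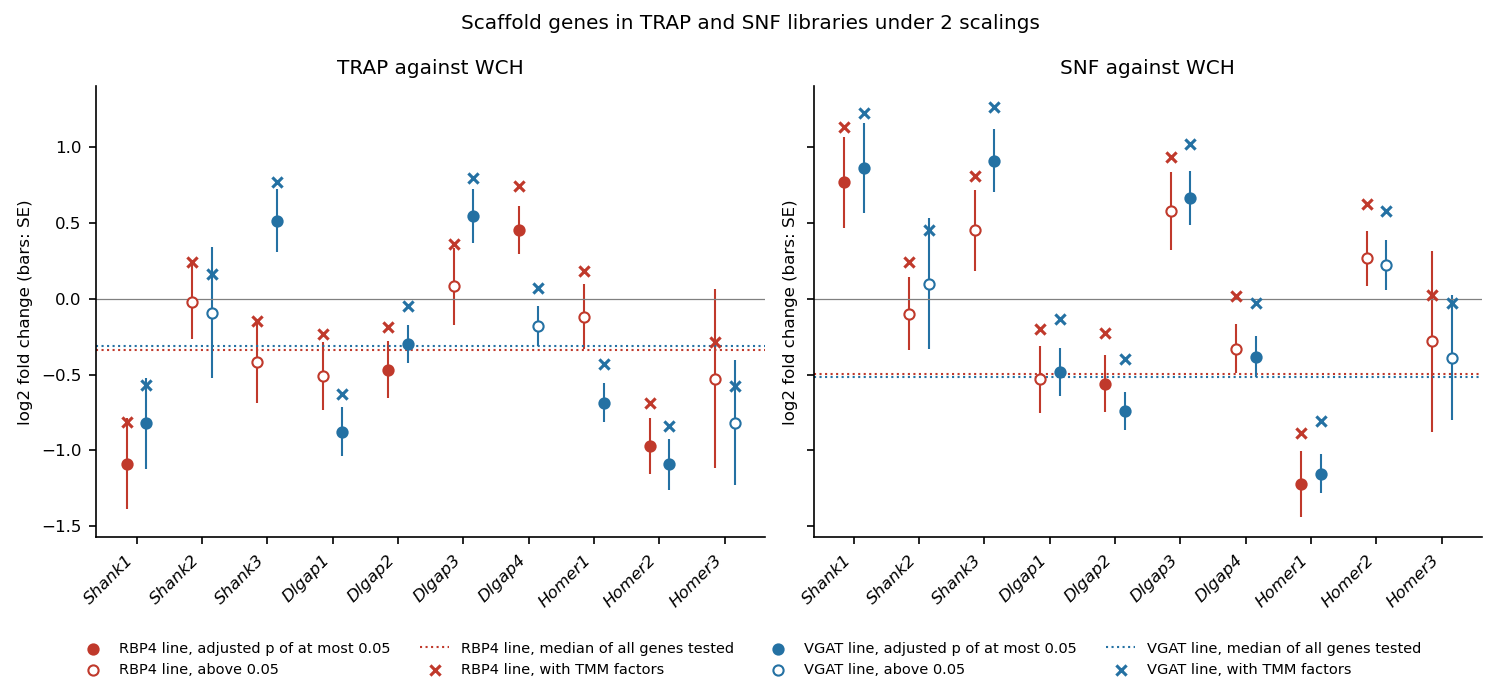
Log2 fold change (y axis; bars, SE) of each scaffold gene (x axis) in TRAP against WCH and in SNF against WCH for the RBP4 (red) and VGAT (blue) lines, 5 libraries a group; filled points have an adjusted p of at most 0.05, dotted lines are medians of all genes tested and crosses the values with TMM factors. The crosses lie above the points throughout, Homer1 stays below 0 in SNF (-1.22 and -1.16) and Shank1 above it (0.77 and 0.86).

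Genes higher in SNF than WCH and in ST than SNF, both at an unadjusted p under 0.05, are taken here as local translation candidates, after the study's intersection of both comparisons. By that rule 71 of 17043 genes (0.417%) were candidates in the RBP4 line, among them Shank1 and Dlgap3, and 220 of 16990 genes (1.29%) in the VGAT line, among them Shank1, Shank3 and Dlgap3. The study reports more candidates in each line and names Shank3 among those of both, so that the lists differ. It states an adjusted p of at most 0.05 except where noted, so its threshold and test may differ from those used here. It also reports Shank3 as enriched in ST in every replicate of both lines, and used it as a positive control in qPCR of further replicates. With TMM factors or DESeq2 the members among the candidates here were Shank1, Shank3, Dlgap3 and Homer2 in both lines. The RBP4 list of the main fit was less stable. Neither gene was on it when no genes were left out of the library sizes or without replicate 1 or 3, Dlgap3 alone was on it in the blocked fit, without replicate 2 or 4 and with replicate 4 left out of ST alone, and Shank1 alone without replicate 5. In the VGAT line the 3 genes were on the list in each fit that left out a replicate, and Shank1 was off it with no genes left out.

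TRAP against WCH compares ribosome-bound mRNA of the tagged neurons with the RNA of the whole tissue. In the RBP4 line Dlgap4 was higher (1 of 10, where 8.37% of all genes were) and Shank1, Dlgap2 and Homer2 lower (3 of 10, 31.5% of all genes). In the VGAT line Shank3 and Dlgap3 were higher (2 of 10, 21.0%) and Shank1, Dlgap1, Dlgap2, Homer1 and Homer2 lower (5 of 10, 41.8%). The medians of all genes were -0.34 and -0.31, and with TMM -0.05 and -0.06. Over all genes the split was 1427 higher and 5372 lower in RBP4 and 3561 and 7106 in VGAT, and with TMM 3296 and 3815, and 4987 and 5530. The groups did not overlap for 1 lower gene of the RBP4 line (23.8% of all genes, and 6.42% in the other direction, with no member), and for 1 higher and 3 lower genes of the VGAT line (16.9% and 34.7%). The blocked fit called 5 members lower in RBP4. Without the 3 TRAP libraries with more oligodendrocyte markers, 1 member was higher and 6 lower in RBP4, and 0 were higher and 6 lower in VGAT.

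Homer2 and Shank1 were lower in TRAP of both lines. Homer2 was at 48.8, 34.6, 32.4, 44.7 and 44.7 cpm in RBP4 TRAP against 63.6 to 92.5 cpm in WCH, with a log2 fold change of -0.97 ± 0.19 (adjusted p = 0.000299), and at 31.3, 31.7, 55.1, 32.1 and 45.3 cpm in VGAT TRAP against 76.3 to 90.5 cpm, with -1.09 ± 0.17 (adjusted p = 1e-05). No TRAP library reached the lowest WCH library. Shank1 was at 88.4, 177, 130.3, 125 and 345 cpm in RBP4 TRAP and at 85.5, 94.1, 319, 106 and 280.3 cpm in VGAT TRAP. Its highest values were in the 3 libraries with more oligodendrocyte markers, and the log2 fold changes went from -1.09 ± 0.30 (adjusted p = 0.00641) and -0.82 ± 0.30 (adjusted p = 0.0207) with them to -1.50 ± 0.26 and -1.72 ± 0.21 without them. The Shank1 calls were lost without RBP4 replicate 1 (adjusted p = 0.0547) and, in VGAT, without replicate 1, 2 or 4 (adjusted p between 0.0736 and 0.0773), with TMM (adjusted p = 0.111) and with DESeq2 (adjusted p = 0.0748).

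Shank2 fell into separate levels within VGAT TRAP. This member (ENSMUSG00000037541, chromosome 7, 144001928 to 144424494) was at 40.4, 33.0, 259, 38.0 and 291 cpm in VGAT TRAP and at 126, 105, 104, 128 and 292 cpm in RBP4 TRAP, where WCH was at 112 to 166 cpm and 117 to 188 cpm. The 3 libraries with more oligodendrocyte markers thus held more Shank2 than any WCH library. WCH held more of those markers, and the part of RNA from other cells in these Shank2 values was not tested. With all libraries Shank2 was not called in TRAP against WCH (-0.09 ± 0.43, adjusted p = 0.867, in VGAT). Without those libraries it was lower in VGAT TRAP by 1.92 ± 0.15 on the log2 scale (adjusted p = 2.77e-09, 3 TRAP libraries), and at -0.41 ± 0.19 in RBP4 (adjusted p = 0.0868, 4 libraries). The libraries were picked by their glial markers and not by Shank2, but after the values had been seen.

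Shank3 and Dlgap3, the members higher in VGAT TRAP, also moved with those libraries. Shank3 was at 14.4, 12.7, 23.0, 12.2 and 25.0 cpm there, with its highest values in replicates 3 and 5, and its log2 fold change of 0.52 ± 0.21 (adjusted p = 0.0354) was 0.10 ± 0.19 without them (adjusted p = 0.673). Its call was also lost without replicate 2, 3 or 5 (adjusted p between 0.0505 and 0.229) and with all 40 libraries in the fit (0.075). Dlgap3 was at 13.4, 13.0, 19.9, 15.5 and 17.7 cpm against 10.5 to 11.2 cpm in WCH, and its 0.55 ± 0.18 (adjusted p = 0.0106) was 0.36 ± 0.20 without them (adjusted p = 0.121). In RBP4 TRAP, Shank3 was at 7.53 to 13.2 cpm in 4 libraries and at 20.2 cpm in replicate 5. It was called lower without that library (-0.71 ± 0.25, adjusted p = 0.0246) and not with it (-0.42 ± 0.27, adjusted p = 0.22). Dlgap1 (-0.66 ± 0.23, adjusted p = 0.0201) and Homer3 (-1.79 ± 0.50, adjusted p = 0.00479) were also lower in RBP4 TRAP without the library, where the blocked fit with all libraries gave -0.54 ± 0.19 (adjusted p = 0.0274) and -1.03 ± 0.40 (adjusted p = 0.0379), and the fit to all 40 libraries called Dlgap1 (adjusted p = 0.0308). For Homer3 in VGAT TRAP the blocked value was -0.94 ± 0.38 (adjusted p = 0.0369), against -0.82 ± 0.41 (adjusted p = 0.0875), and it was called lower without replicates 3 and 5 of VGAT TRAP (-1.12 ± 0.46, adjusted p = 0.0404) and without replicate 3 of all fractions (-1.32, adjusted p = 0.0084).

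**Figure D5:**
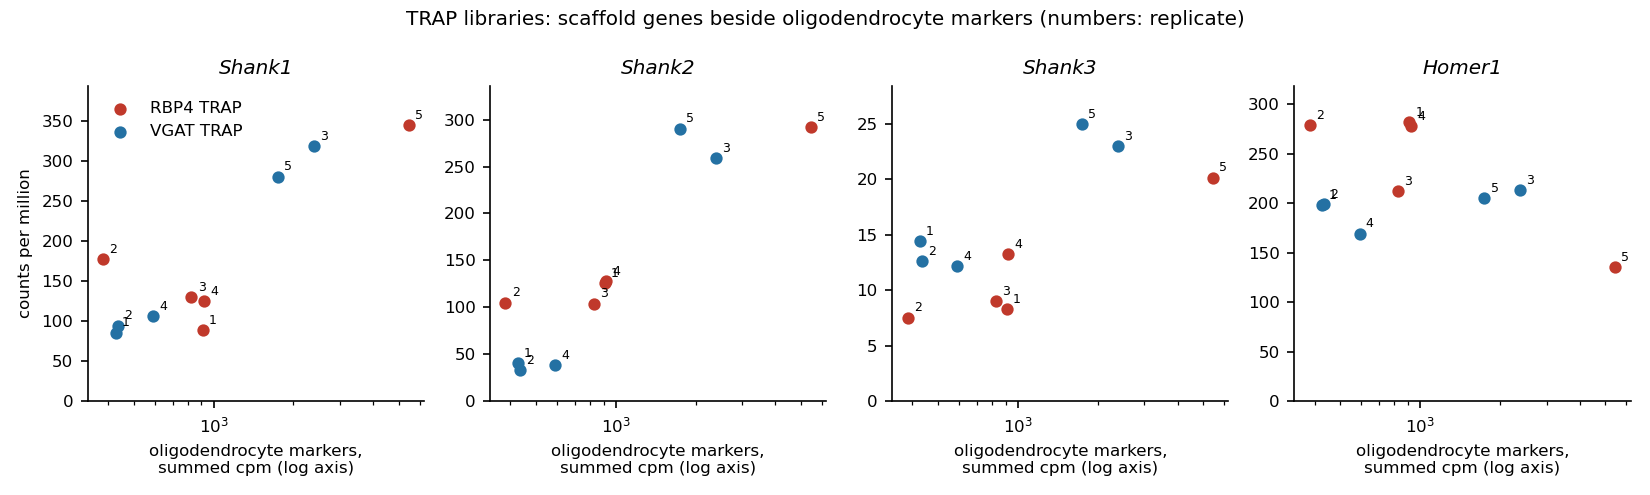
Values in cpm (y axis) of Shank1, Shank2, Shank3 and Homer1 in the 10 TRAP libraries against the summed cpm of 5 oligodendrocyte markers (x axis, logarithmic); red is RBP4 TRAP, blue VGAT TRAP, and numbers give the replicate. The 3 libraries on the right, at 1746 to 5448 cpm of the markers, have Shank2 at 259 to 292 cpm, and Homer1 is lowest in the rightmost one, at 135 cpm.

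Dlgap2 was lower in both lines by less. Its log2 fold change was -0.47 ± 0.19 in RBP4 (adjusted p = 0.0499) and -0.30 ± 0.12 in VGAT (adjusted p = 0.0414), close to the medians of all genes. The RBP4 call was lost under TMM, DESeq2, no filter, no genes left out and without replicate 1, 2, 3 or 4 (adjusted p between 0.0845 and 0.374), and was kept without the TRAP library with more oligodendrocyte markers (-0.63 ± 0.18, adjusted p = 0.00677). The VGAT call was lost under the same 4 settings, with all 40 libraries and without replicate 1, 2, 4 or 5 (adjusted p between 0.0565 and 0.734), and without the 2 TRAP libraries (-0.35 ± 0.15, adjusted p = 0.0505). Dlgap1 was lower in VGAT TRAP, at 203, 193, 298, 242 and 218 cpm against 386 to 454 cpm in WCH, with -0.88 ± 0.16 (adjusted p = 7.98e-05).

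Homer1 and Dlgap4 had calls in TRAP of 1 line and not of the other. Homer1 was at 198, 199, 213, 169 and 205 cpm in VGAT TRAP, each below every VGAT WCH library, with -0.68 ± 0.13 (adjusted p = 9.32e-05). In RBP4 TRAP it was at 282, 279, 212, 278 and 135 cpm, the lowest in replicate 5, with -0.12 ± 0.21 (adjusted p = 0.688). The difference between the lines, 0.57 ± 0.25, was not called with all libraries (adjusted p = 0.15) and was 0.78 ± 0.26 without the 3 libraries (adjusted p = 0.0358). Dlgap4 (ENSMUSG00000061689, chromosome 2, 156613705 to 156764363) was at 66.9, 72.0, 84.6, 100.2 and 82.0 cpm in RBP4 TRAP against 62.1, 51.3, 55.5, 69.4 and 57.5 cpm in WCH, higher in each of the 5 pools, and its log2 fold change was 0.46 ± 0.16 (adjusted p = 0.0263). In VGAT TRAP it was at 65.4, 43.9, 61.9, 56.1 and 59.6 cpm, with -0.18 ± 0.13 (adjusted p = 0.251). The difference between the lines was 0.64 ± 0.20 (adjusted p = 0.0287). Dlgap4 was the only member called in this test with all libraries, where 5.61% of all genes were called higher and 6.95% lower. It was lost without RBP4 replicate 3 or 5, without VGAT replicate 1, 2 or 4, with no filter on low counts and with no genes left out (adjusted p between 0.0503 and 0.157). The RBP4 call itself was lost with no filter on low counts and without replicate 2, 3 or 5 (adjusted p between 0.0604 and 0.0982).

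ST against TRAP sets the pull-down from the synaptic particles beside that from the homogenate. The fit compared group means with no pool term, and same-numbered ST and TRAP libraries did not deviate together (mean r -0.0774 in RBP4 and 0.0621 in VGAT). The fractions also differed in other cells' markers, with oligodendrocyte sums of 383 to 5448 cpm in TRAP and 31725 to 54545 cpm in ST, and their part in what follows was not tested. In the RBP4 line 8 of 10 scaffold genes were higher (26.0% of all genes) and Homer1 lower (29.1% of all genes). In VGAT 9 of 10 were higher (37.5%) and Homer1 lower (34.0%). The groups did not overlap for 5 and 8 of the genes that were higher, against 13.6% and 24.3% of all genes, and for 0 of those lower (19.4% and 26.9% of all genes). These comparisons share their ST libraries with those against SNF.

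Shank3 had the largest log2 fold change in RBP4, 3.20 ± 0.29 (adjusted p = 4.74e-08), and Shank1 in VGAT, 2.94 ± 0.32 (adjusted p = 4.09e-08). Shank1 was at 1199, 1239, 1678, 1432 and 1258 cpm in VGAT ST. Homer2 had 2.47 ± 0.19 in RBP4 and 2.72 ± 0.18 in VGAT, and Dlgap3 2.45 ± 0.26 and 2.59 ± 0.18. Dlgap1, Dlgap2 and Dlgap4 were between 0.50 and 1.39 in both lines. The Dlgap2 call in RBP4 (0.58 ± 0.19, adjusted p = 0.0111) was lost without replicate 1 or 4 (adjusted p 0.0503 and 0.09) and with no genes left out (adjusted p = 0.0594), as was that of Dlgap4 with no genes left out (0.41, adjusted p = 0.0598). Homer1 was lower in ST by 0.99 ± 0.22 on the log2 scale in RBP4 (adjusted p = 0.000504) and by 0.50 ± 0.13 in VGAT (adjusted p = 0.00134), and under each alternative it was the only member lower. Without the 3 TRAP libraries Shank1 went from 2.94 to 3.84 ± 0.24 in VGAT (adjusted p = 6.76e-11) and from 2.49 ± 0.31 to 2.90 ± 0.28 in RBP4. Shank2 went from 1.59 ± 0.44 to 3.42 ± 0.16 in VGAT (adjusted p = 2.35e-12) and from 1.29 ± 0.25 to 1.68 ± 0.20 in RBP4 (adjusted p = 2.53e-07). Homer3 was not called in RBP4 (0.69 ± 0.59, adjusted p = 0.336), but was in the blocked fit (1.12 ± 0.39, adjusted p = 0.0193), without the TRAP library with more oligodendrocyte markers (1.95 ± 0.49, adjusted p = 0.00172) and without replicate 5 of all fractions (1.64, adjusted p = 0.00342).

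Between the lines, few differences were seen. In WCH and in ST no member was called by edgeR or DESeq2 and none had an unadjusted p under 0.05 in edgeR. Over all genes 1 was higher and 1 lower in RBP4 WCH (0.00592% each), and 10 were higher and 45 lower in RBP4 ST (0.0592% and 0.266%), with 15 and 36 under TMM and 77 and 61 in DESeq2. Groups of the 2 lines did not overlap for 0.793% (higher) and 0.763% (lower) of all genes in WCH and for 0.13% and 1.22% in ST, and for no member. The ST differences of the members were between -0.49 ± 0.34 (Shank1) and 0.17 ± 0.52 (Homer3), which does not show that the lines are alike. In TRAP, Dlgap4 was higher in RBP4 by 0.50 ± 0.15 on the log2 scale (adjusted p = 0.0116, 1 of 10, where 12.9% of all genes were called higher). The lowest RBP4 TRAP library of Dlgap4 was above the highest of VGAT, as for 9.58% of all genes, and no member was lower in RBP4 TRAP (15.1% of all genes, with 13.2% not overlapping). Without VGAT replicate 2, which had the lowest value, its adjusted p was 0.0551.

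For Shank2 a contrast between the lines in TRAP was called only when the libraries with more oligodendrocyte markers were left out. With all of them the log2 difference was 0.19 ± 0.41 (adjusted p = 0.773). Without them Shank2 was at 103.8 to 128 cpm in 4 RBP4 TRAP libraries and at 33.0 to 40.4 cpm in 3 VGAT TRAP libraries, and the difference was 1.64 ± 0.20 (adjusted p = 2.61e-07). Its line difference of TRAP against WCH was then 1.52 ± 0.23 (adjusted p = 5.75e-06), and the interaction of line and fraction for ST less TRAP was -1.74 ± 0.25 (adjusted p = 1e-05). In ST, Shank2 was at 369 ± 89.2 cpm in RBP4 and 398 ± 37.3 cpm in VGAT (SD, n = 5), with no call (-0.11 ± 0.41). With RBP4 replicate 5 left out of all fractions and the other libraries kept, Shank3 (-0.87, adjusted p = 0.0179) and Dlgap2 (-0.49, adjusted p = 0.0114) were lower and Homer1 (0.42, adjusted p = 0.0382) higher in RBP4 than VGAT TRAP, and the line difference of TRAP against WCH was called for Shank3 (-1.26, adjusted p = 0.0106).

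The interaction of line and fraction for ST less TRAP was called for 0 of 10 members in edgeR and in DESeq2, with 1 at an unadjusted p under 0.05, where 5.02% and 5.79% of all genes were called higher and lower. That member was Dlgap4, at -0.60 ± 0.21 (adjusted p = 0.0659). The blocked fit called it (-0.60 ± 0.18, adjusted p = 0.0308), as did the fit to all 40 libraries (adjusted p = 0.047) and those without RBP4 replicate 4 (-0.65, adjusted p = 0.0356) and without its ST library alone (-0.73, adjusted p = 0.0147). Without RBP4 replicate 5 Homer1 was called (-0.65, adjusted p = 0.0448). For ST against SNF the line difference was called for 0 of 17728 genes in edgeR and in DESeq2, with 502 and 578 genes at an unadjusted p under 0.05, and for 4 in the likelihood ratio test. The 502 and 578 genes are fewer than the share of about 0.05 that chance alone would give. The lack of calls there does not show that the lines are alike.

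Genes whose proteins bind these scaffolds did not all move with them. A list of 25 partners was used: the 4 MAGUK genes of the Dlg family, genes of glutamate receptors and their signalling, Homer ligands, and partners of Shank and Dlgap. In ST against SNF, 3 of 25 were higher and 5 lower in RBP4 (5.64% and 5.46% of all genes), and 9 higher and 5 lower in VGAT (16.3% and 11.2%), with median log2 fold changes of 0.07 and 0.16 beside 1.24 and 1.28 for the scaffolds. Agap2, a GTPase activating protein that binds Homer, had 1.48 ± 0.27 (adjusted p = 0.00084) and 1.74 ± 0.19 (adjusted p = 6.2e-07), and Dlg4, which encodes PSD-95, 0.97 ± 0.19 (adjusted p = 0.00136) and 1.18 ± 0.13 (adjusted p = 7.8e-07). Grm5, the metabotropic glutamate receptor that Homer binds, was lower by 1.08 ± 0.24 (adjusted p = 0.00472) and 1.41 ± 0.13 (adjusted p = 7.87e-08) on the log2 scale. The adhesion molecules Nlgn3 in RBP4 (-0.96 ± 0.22) and Nlgn1 in VGAT (-1.24 ± 0.13) were lower too. Grm5 went from 437 ± 71.8 cpm in VGAT SNF to 165 ± 27.0 cpm in ST (SD, n = 5).

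In the comparisons with WCH, the counts of partners that were lower lay near the shares over all genes in SNF of both lines and in RBP4 TRAP. In SNF against WCH, 7 of 25 were higher and 10 lower in RBP4 (13.4% and 36.1% of all genes) and 8 and 11 in VGAT (19.3% and 45.2%), with Nlgn2 in RBP4 (1.02 ± 0.19) and Grm5 in VGAT (1.14 ± 0.13) among those higher and Frmpd4 in RBP4 (-1.13 ± 0.19) and Cttn in VGAT (-1.14 ± 0.10), which encodes the actin-binding cortactin, among those lower. In TRAP against WCH, 1 was higher and 9 lower in RBP4 (8.37% and 31.5% of all genes) and 3 and 14 in VGAT (21.0% and 41.8%). In ST against TRAP, 11 were higher and 5 lower in RBP4 (26.0% and 29.1%) and 15 and 9 in VGAT (37.5% and 34.0%). Between the lines, 6 partners were higher and 3 lower in RBP4 TRAP (12.9% and 15.1%). Dnm3, a dynamin that binds Homer, was lower in RBP4 TRAP by 1.26 ± 0.15 on the log2 scale (adjusted p = 1.47e-07), while the adhesion gene Nlgn1 was higher by 0.90 ± 0.17 (adjusted p = 0.000173). In WCH and ST, 0 of 25 were called between the lines in edgeR, and 0 had an unadjusted p under 0.05.

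Genes with a pattern most like a member were sought among 10791 genes with at least 5 cpm on average, by Pearson's r of mean log2(cpm + 1) over the 8 groups. For Shank3 these were Tmcc2 (r = 0.998), Mapk8ip2 (0.996) and Cenpb (0.994), for Dlgap3 Zfp523 (0.994), Wdtc1 (0.993) and Rpl4 (0.993), and for Homer1 Ybx3 (0.989), Herc4 (0.988) and Agfg1 (0.987). For Homer2 and Shank1, added after their values were seen, they were Acaca (0.997), Pde8a (0.996) and Mobp (0.996), a gene of myelin, and Plekhb1, Ezr and Aldh4a1 (0.993 each). With 8 points that share pools and libraries these values are a description. Among the members, Shank3 and Dlgap3 were the most alike (0.990), and Shank1 and Homer1 the least (-0.679).

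Since elements that guide mRNA transport and translation often lie in the 3′ UTR, the longest annotated 3′ UTR of each gene (GENCODE M21, GRCm38) was described. That of Dlgap3 is 654 bases long with a GC content of 66.4%, above 99.9% of 15014 genes, whose median is 44.5%. Those of Shank1 (56.7%), Homer3 (56.6%), Shank3 (56.0%) and Dlgap4 (53.8%) are also GC-rich, at percentiles 95.8, 95.5, 94.3 and 88.6. Homer1 is at the other end, with 33.5% GC (percentile 6.19) over 4349 bases. That UTR belongs to a transcript that ends at 93360462, upstream of the other Homer1 ends, and the longest one at the distal end has 2900 bases and 34.5% GC. As the counts are per gene, short and long Homer1 transcripts cannot be told apart. Homer2 has the longest 3′ UTR of the 10 genes, 9772 bases, with 43.2% GC.

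Exact matches on the transcript strand were counted for 3 motifs: GGACAAG, which the study ties to FMRP, the cytoplasmic polyadenylation element TTTTAT, and TGTANATA, which Pumilio proteins bind. They are found in 10.03%, 56.1% and 26.3% of the longest 3′ UTRs of all genes, and no matches to different motifs overlapped in the members. GGACAAG is found in Shank2 alone among the 10 genes. TTTTAT is found 15 times in Homer2, 12 times in Homer1, 3 times in Dlgap2, and in 1 place each in Shank2, Dlgap1 and Dlgap3. The Homer1 matches are those of the UTR of 4349 bases, and the one at the distal end holds TTTTAT 4 times. TGTANATA is found in Dlgap1, Dlgap4 and Homer1 (2 times, and in 1 place at the distal end). Shank1, Shank3 and Homer3 hold none of the 3. The windows below are shown because each holds the only match to its motif in the Shank2, Dlgap3, Dlgap1 and Dlgap4 3′ UTRs. The match is in capitals, 5′ to 3′ on the plus strand of GRCm38.
Shank2, GGACAAG, chr7:144422003-144422029: acttttacaaGGACAAGaggacctgag
Dlgap3, TTTTAT, chr4:127236767-127236792: cttcgtggctTTTTATgaagaatccc
Dlgap1, TGTANATA, chr17:70821334-70821361: aataacaaccTGTAAATAgatgaacgtt
Dlgap4, TGTANATA, chr2:156763695-156763722: tgtacgtttgTGTACATAtgcacataga
The Dlgap3 match lies at base 409 of 654 of its 3′ UTR and the Shank2 match at base 878 of 3359. A match is a string of letters and shows no binding.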

How the data were processed

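RNA sequencing counts of 40 libraries were used, 5 replicates for each of 2 lines and 4 fractions, grouped by their labels. The authors aligned reads with STAR 2.0.4b to an Ensembl assembly and counted them per gene with featureCounts 1.4.5 (Subread), and the deposited counts carry no normalization. The genome build and strand setting are not given in the sources used here. Of the genes counted, 99.9% overlap their span in GENCODE M21 (GRCm38), from which symbols were taken (40254 genes). No 2 libraries held identical values.

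Genes on the mitochondrial chromosome (37) and those annotated as rRNA or tRNA (353) were left out of library sizes, which were used without a further factor. Genes had to reach 0.5 cpm in at least 3 libraries. Quasi-likelihood tests were run with edgeR 4.0.16 under R 4.3.3, fitting group means alone, and p-values were adjusted by Benjamini-Hochberg over all genes tested. Within-line fits took the 20 libraries of that line (17043 genes for RBP4, 16990 for VGAT), those between lines the 30 WCH, TRAP and ST libraries (16898 genes), and line differences all 40 (17728 genes). The fits were also run on simulated counts without pool effects, which does not cover the links between samples of a pool. Other settings tried were DESeq2 1.42.0, edgeR's likelihood ratio test, TMM factors, no genes left out, no filter or one of 1 cpm in 5 libraries, all 40 libraries, a replicate block, and replicates left out in turn.

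The 4 samples of a replicate came from 1 pool according to the protocol, so that numbers pair samples within a line. Deviations of same-numbered libraries correlated between ST and SNF (mean r 0.438 in RBP4, 0.474 in VGAT, over 5000 genes), but not between ST and TRAP (-0.0774 and 0.0621). Mean r was 0.309 and 0.404 between TRAP and WCH, and 0.205 and 0.375 between SNF and WCH. Same-numbered libraries of the 2 lines had a mean r of 0.309 in WCH, 0.237 in TRAP and 0.0917 in ST. Whether replicate numbers share a preparation across the lines was not tested. Every member is named in each comparison. Of the 25 partners, chosen from textbook knowledge, at most 2 per direction and comparison with the smallest p are named (some are not reported here), and like genes for 1 member per family (the 3 with the highest r). The members and lists were chosen with earlier results of these data known. Figures and other steps used Python 3.11.15, numpy 2.4.6, pandas 2.3.3 and matplotlib 3.10.9.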

Additional observations from a re-analysis of the deposited data

Results flagged for a closer look

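Of 80 groups of 5 libraries (10 genes in 8 groups), 2 held a library farther from the others than Dixon's 95% critical value allows, where chance gives about 1 in 20. Both were replicate 5 of RBP4 TRAP. Shank2 was at 292 cpm in it, against 103.8 to 128 cpm in the other 4 libraries, and Homer3 at 5.99 cpm, against 0.179 to 1.09 cpm. Oligodendrocyte markers summed to 5448 cpm in that library, and their part in these values was not tested. The VGAT TRAP group with Shank2 at 259 and 291 cpm in 2 libraries and 33.0 to 40.4 cpm in 3 could not be singled out by this measure, which looks for a lone library.

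The difference between the lines in TRAP against WCH was called for Dlgap4, with a log2 difference of 0.636 (adjusted p = 0.0287, edgeR's quasi-likelihood test). Dlgap4 was higher in TRAP in 5 of 5 RBP4 pools and in 1 of 5 VGAT pools.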

How the results depend on the processing

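The counts of members called in ST against SNF, ST against TRAP, SNF against WCH (higher, VGAT line) and between the lines in WCH and ST stayed within 1.5 times the value given under each alternative. The others moved. With DESeq2 and with TMM alike, SNF against WCH gave 4 higher and 1 lower in RBP4 and 2 lower in VGAT, TRAP against WCH gave 3 lower in VGAT, and RBP4 candidates numbered 4. With DESeq2 the SNF against WCH value of Dlgap4 in VGAT turned to 0.074. With no genes left out, SNF against WCH in RBP4 gave 0 higher and 4 lower, RBP4 candidates were 0, and the line difference of TRAP against WCH gave 0 higher. With no filter, the latter and TRAP against WCH in RBP4 gave 0 higher. With all 40 libraries, SNF against WCH in RBP4 gave 2 higher, TRAP against WCH in VGAT 1 higher, and the interaction 1 lower. The cause of these shifts was not tested.

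Within a line the replicate block pairs samples by pool, which it cannot do between the lines, as each pool belongs to a single line. With the block, TRAP against WCH in RBP4 gave 5 lower, SNF against WCH in RBP4 2 higher and 4 lower, the interaction 1 lower, and RBP4 candidates were 1. Other calls that the block changed were given beside their results, and it changed no further call of a member.

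Without RBP4 ST replicate 4, SNF against WCH in RBP4 gave 2 higher, the interaction 1 lower and RBP4 candidates were 1. Without the 3 TRAP libraries high in oligodendrocyte markers, TRAP against WCH gave 6 lower in RBP4 and 0 higher in VGAT, RBP4 against VGAT TRAP 2 higher, the interaction 1 lower, and the line difference 3 higher.

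Leaving out a replicate in turn gave, for TRAP against WCH, 0 to 1 higher and 1 to 6 lower in RBP4 and 1 to 2 higher and 3 to 6 lower in VGAT. It gave 0 to 1 higher and 1 to 3 lower for SNF against WCH in RBP4, 0 to 2 higher and 0 to 2 lower for RBP4 against VGAT TRAP, 0 to 1 lower for the interaction, 0 to 1 higher and 0 to 1 lower for the line difference, and 0 to 1 RBP4 candidates. Over all 2530 single values of members and settings, 1 turned direction, 50 became called and 72 lost the call. A further 91 values, called in neither fit, changed sign. Homer3, with as few as 3 counts in a library, is limited by depth. Pools are separate animals, so p-values cover the spread between pools and preparations.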
